A study of Mus musculus with 8 samples.

Results

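Irg1 and 8 genes around it in central carbon metabolism were followed in mouse bone marrow-derived macrophages. They are 9 of the 23366 genes in the deposited table, and they were taken by symbol: Irg1, Cs, Idh1, Idh2, Ogdh, Sdha, Sdhb, Mdh2 and Slc25a1. Each library is an RNA-seq measurement of many cells together. The groups were Lsd1SA/SA macrophages given lipopolysaccharide (LPS, a bacterial cell wall component sensed by the receptor TLR4) for 2 h, untreated Lsd1SA/SA macrophages, wild-type macrophages given LPS for 2 h, and untreated wild-type macrophages, with 2 libraries each. In the Lsd1SA/SA knock-in, the histone demethylase LSD1 is phosphorylation-defective, all cells were C57BL/6 at passage 1, and all were kept without serum for 24 h. The label dose of LPS is 1 mg/ml. The titles of the LPS-treated knock-in libraries give the time only, and other labels name LPS. The labels leave unsaid whether the 2 libraries of a group are separate cultures or animals, so each p-value reflects the scatter between libraries alone, which may be technical.

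The tricarboxylic acid (TCA) cycle oxidises acetyl units in mitochondria. Citrate synthase (Cs) makes citrate, isocitrate dehydrogenases (Idh1 in the cytosol, Idh2 in mitochondria) turn isocitrate into 2-oxoglutarate, Ogdh is the first subunit of the 2-oxoglutarate dehydrogenase complex, Sdha and Sdhb are the flavoprotein and iron-sulfur subunits of succinate dehydrogenase, and Mdh2 is mitochondrial malate dehydrogenase. Slc25a1 is the carrier that exports citrate from mitochondria. Irg1, now named Acod1, encodes the enzyme that decarboxylates cis-aconitate to itaconate, a metabolite that inhibits succinate dehydrogenase, and it is known as one of the strongly LPS-induced genes of macrophages.

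The window of 250 bases before the start of Irg1 is shown because Irg1 had by far the widest range of the 9 genes, and those of Sdha and Sdhb because these 2 subunits of one enzyme moved opposite to most of the others. The sequences are from RefSeq on GRCm38.p6, which is another build than the mm9 genome named in the submitters' processing notes. All 9 genes matched the RefSeq table, 1 of them (Irg1) through a synonym. Capitals mark matches to motifs that were chosen after the sequences had been seen.
Irg1, chr14:103046762-103047011, plus strand: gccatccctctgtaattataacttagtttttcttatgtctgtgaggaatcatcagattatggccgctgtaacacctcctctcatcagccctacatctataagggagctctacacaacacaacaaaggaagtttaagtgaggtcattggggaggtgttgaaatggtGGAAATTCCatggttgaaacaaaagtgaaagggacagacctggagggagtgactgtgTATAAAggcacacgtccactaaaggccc
Sdha, chr13:74350241-74350490, minus strand: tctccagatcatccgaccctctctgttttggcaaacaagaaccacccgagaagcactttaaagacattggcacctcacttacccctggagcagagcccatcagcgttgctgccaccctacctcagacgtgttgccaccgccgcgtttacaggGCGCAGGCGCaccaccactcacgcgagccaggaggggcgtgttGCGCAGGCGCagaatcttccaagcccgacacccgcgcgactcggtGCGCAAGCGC
Sdhb, chr4:140961021-140961270, plus strand: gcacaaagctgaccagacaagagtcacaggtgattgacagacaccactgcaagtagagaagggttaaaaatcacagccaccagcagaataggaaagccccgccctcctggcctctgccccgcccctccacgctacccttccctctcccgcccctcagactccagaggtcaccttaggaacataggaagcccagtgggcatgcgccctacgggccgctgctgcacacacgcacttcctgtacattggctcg
In Irg1 the capitals mark a pair of NF-κB half-sites, GGAANTTCC, whose first base lies 85 bases before the start, and a TATA box, TATAAA, 28 bases before it. Of 32841 mouse windows of this length, 0.813% held the first motif and 12.4% the second on either strand. The 3 matches in Sdha are to the NRF1 motif (GCGCA and GCGC with 1 base between), at 98, 55 and 10 bases before the start, which 3.74% of windows held. None of the 8 genes other than Irg1 had GGAANTTCC or TATAAA in its windows. The cyclic AMP response element TGACGTCA, held by 1.55% of windows, was found in Ogdh and Mdh2, and neither the ETS motif CCGGAAG (6.91% of windows) nor the interferon response core (GAAA repeated with 2 bases between; 2.98%) was in any window of the 9. The letters of Sdhb matched none of these motifs.

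Levels below are TMM-scaled CPM, read counts set relative to a scaled library size, the form the deposited values have; totals were 40379258 to 55595160 reads a library. All 9 genes passed the filter on low values and were tested with limma among 11919 genes, on log2(CPM + 1), with Benjamini-Hochberg adjustment over all of these genes. The LPS-treated knock-in libraries stand apart from the other 6: they held 4993 and 5122 reads of 4 Y-linked genes, against at most 2 in any other library, and their Xist levels were 0.366 and 0.212 CPM, against 315 to 437 CPM in the others. Sex and group therefore cannot be told apart in every comparison that uses them, and without them no LPS effect in the knock-in can be given. Macrophage markers were abundant in every library (9 genes summing to 12235 to 12885 CPM in LPS-treated knock-in, 13961 to 14624 in untreated knock-in, 17579 to 17962 in LPS-treated wild-type and 14162 to 14206 in untreated wild-type libraries). Single markers went different ways. With LPS, 1 was higher and 6 lower in knock-in cells (56.7% of all tested genes passed). In wild type 4 were higher and 2 lower (57.6% passed), against 1 and 7 with quantile normalization. Under that scaling, 2539 of all tested genes passed as higher and 4640 as lower. Fcgr1 had means of 913 CPM in LPS-treated and 287 CPM in untreated knock-in libraries. Cd14 had 66.2 and 133 CPM there, against 1385 and 129.5 CPM in LPS-treated and untreated wild type.

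Irg1 had the largest response of the 9 genes. It had 62.5 and 56.7 CPM in LPS-treated knock-in libraries, 6.87 and 7.7 CPM in untreated knock-in, 4375 and 4605 CPM in LPS-treated wild-type and 6.5 and 6.11 CPM in untreated wild-type libraries. No 2 of the groups overlapped, and the order of the group means was LPS-treated wild type, LPS-treated knock-in, untreated knock-in and untreated wild type. In wild-type cells LPS raised the mean CPM 712-fold, to 4490.2 ± 163 against 6.3 ± 0.275 (SD, n = 2 each), and Irg1 ranked 2 of the 11919 genes by log2 change (9.26 ± 0.06, SE; limma adjusted p = 5.45e-32). In knock-in cells LPS raised it 8.18-fold, to 59.6 ± 4.14 against 7.28 ± 0.588 CPM, which was rank 24 (log2 change 2.87 ± 0.06, SE; limma adjusted p = 3.83e-21).

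With LPS, the Irg1 level was 75.3 times lower in knock-in than in wild-type cells by the group means (log2 difference -6.21, 95% CI -6.34 to -6.08; limma adjusted p = 2.16e-28). Subtracting the wild-type LPS effect from that of the knock-in gave -6.39 on the log2 scale (SE 0.09, limma adjusted p = 4.04e-25). Without LPS, Irg1 differed by 0.18 between knock-in and wild type (95% CI 0.05 to 0.31, limma adjusted p = 0.233), so the untreated levels did not differ past the threshold. Every alternative run on the 4 Irg1 results that passed kept them past it with the same sign.

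Levels can be set side by side between genes per kilobase of transcript. On that scale Irg1 had 22.7 CPM per kb in LPS-treated knock-in, 2.78 in untreated knock-in, 1712 in LPS-treated wild-type and 2.4 in untreated wild-type cells, while Cs had 47.8, 54.4, 62.8 and 52.3 CPM per kb in the same order. Irg1 therefore lay above Cs in LPS-treated wild-type cells and below it in the other 3 groups. Within a library, the ratio of Irg1 to Cs per length needs no scaling between libraries. It was 0.489 and 0.462 in LPS-treated knock-in, 0.0477 and 0.0544 in untreated knock-in, 27.1 and 27.4 in LPS-treated wild-type, and 0.0458 and 0.0461 in untreated wild-type libraries. The 2 LPS groups were each above their untreated groups and far from each other in this ratio too.

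The genes most like Irg1 over the 8 libraries, by Pearson correlation of log2(CPM + 1) among 10115 genes whose highest group mean was at least 5 CPM, were Rnf19b and Il17ra (r = 0.99924 each), Arl5c (r = 0.99915), Tnfsf15 (r = 0.99908) and Bcl2a1b (r = 0.99892). These correlations rest on the same 4 groups and are given as a description. Rnf19b, a RING-finger ubiquitin ligase gene, had 231 and 233 CPM in LPS-treated knock-in, 126 and 132 CPM in untreated knock-in, 989 and 992 CPM in LPS-treated wild-type, and 126 and 114 CPM in untreated wild-type libraries. Tnfsf15, which encodes a cytokine of the TNF family, had 8.45 and 8.01, 3.35 and 3.38, 54.2 and 56.9, and 3.27 and 3.49 CPM in the same order of groups. All 5 had the order of LPS groups seen for Irg1, with a much narrower range. Bcl2a1b has near-identical paralogs, and how the authors' counting divided such reads is not given in the sources used here. None of the 8 enzyme and carrier genes had group means spanning as much as 1 on the log2 scale.

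**Figure D1:**
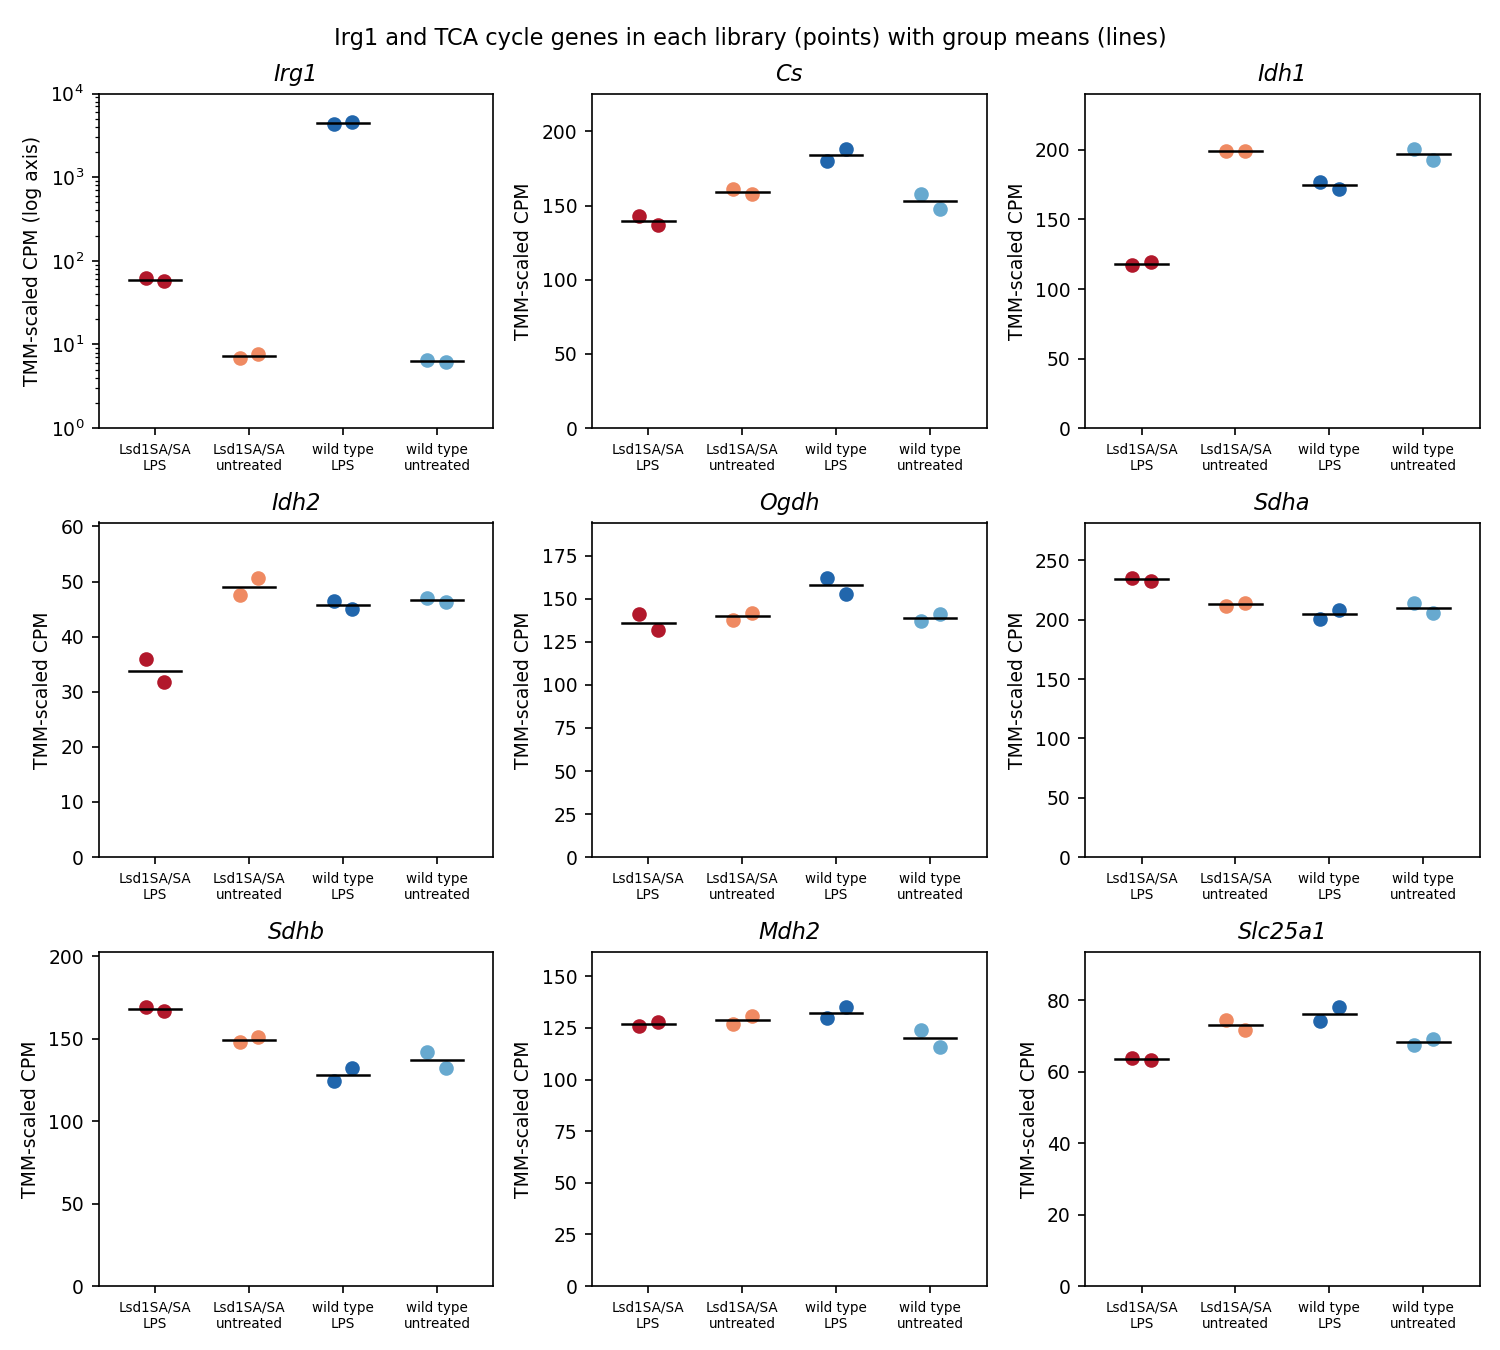
Level of each gene in each library (points, TMM-scaled CPM; log axis for Irg1 and axes from 0 for the others) with the mean of the 2 libraries of each group (lines). Irg1 spans 6.11 to 4605 CPM, whereas the other 8 genes differ little between groups, with Idh1 and Idh2 lowest and Sdha and Sdhb highest in LPS-treated knock-in libraries.

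Over the 9 genes, LPS gave 3 higher and 4 lower in knock-in cells (adjusted p under 0.05; of all tested genes 56.7% passed, 28.5% as higher and 28.3% as lower) and 5 higher and 1 lower in wild-type cells (57.6% passed, 26.8% as higher and 30.7% as lower). Under LPS, 2 were higher and 6 lower in knock-in than in wild-type cells (75.4% passed, 38.5% as higher and 36.8% as lower), and 7 had a lower and 2 a higher LPS effect in the knock-in (63.7% passed, 31.8% in each direction). None differed between untreated knock-in and untreated wild type (0.00839% passed, a single gene of 11919, while 1617 genes had an unadjusted p under 0.05), and edgeR and DESeq2 on the recovered reads also called 0 of the 9. Since most tested genes passed in the comparisons with LPS, nothing particular to the 9 genes is drawn from these counts. The medians over the 9 were -0.04 for LPS in the knock-in, 0.14 for LPS in wild type and -0.25 for knock-in against wild type with LPS, beside 0.02, -0.03 and 0.02 over all tested genes.

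The direction of small changes depended on how libraries were scaled. Library factors implied by the deposited values were 1.02 and 1.02 in LPS-treated knock-in, 1.06 and 1.05 in untreated knock-in, 0.878 and 0.866 in LPS-treated wild-type, and 1.07 and 1.07 in untreated wild-type libraries. Scaling to equal totals moved the median of all genes by -0.27 for LPS in wild type and by 0.21 for knock-in against wild type with LPS. The split of the 9 genes for LPS in wild type was then 1 higher and 6 lower, with quantile normalization 1 higher and 5 lower, against the 5 higher and 1 lower above. Among all calls in that comparison, 46.6% were higher as deposited, 35.4% with quantile normalization and 17.5% with equal totals. Under LPS, knock-in against wild type, 51.1% of calls were higher as deposited, 57.5% with quantile normalization and 67.6% with equal totals, and the 9 genes split 3 higher and 4 lower under both. For the difference in LPS effect, 50% of calls were higher as deposited, 56.9% with quantile normalization and 70.6% with equal totals, with 2 genes of the 9 higher throughout and 5 and 4 lower under these scalings.

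**Figure D2:**
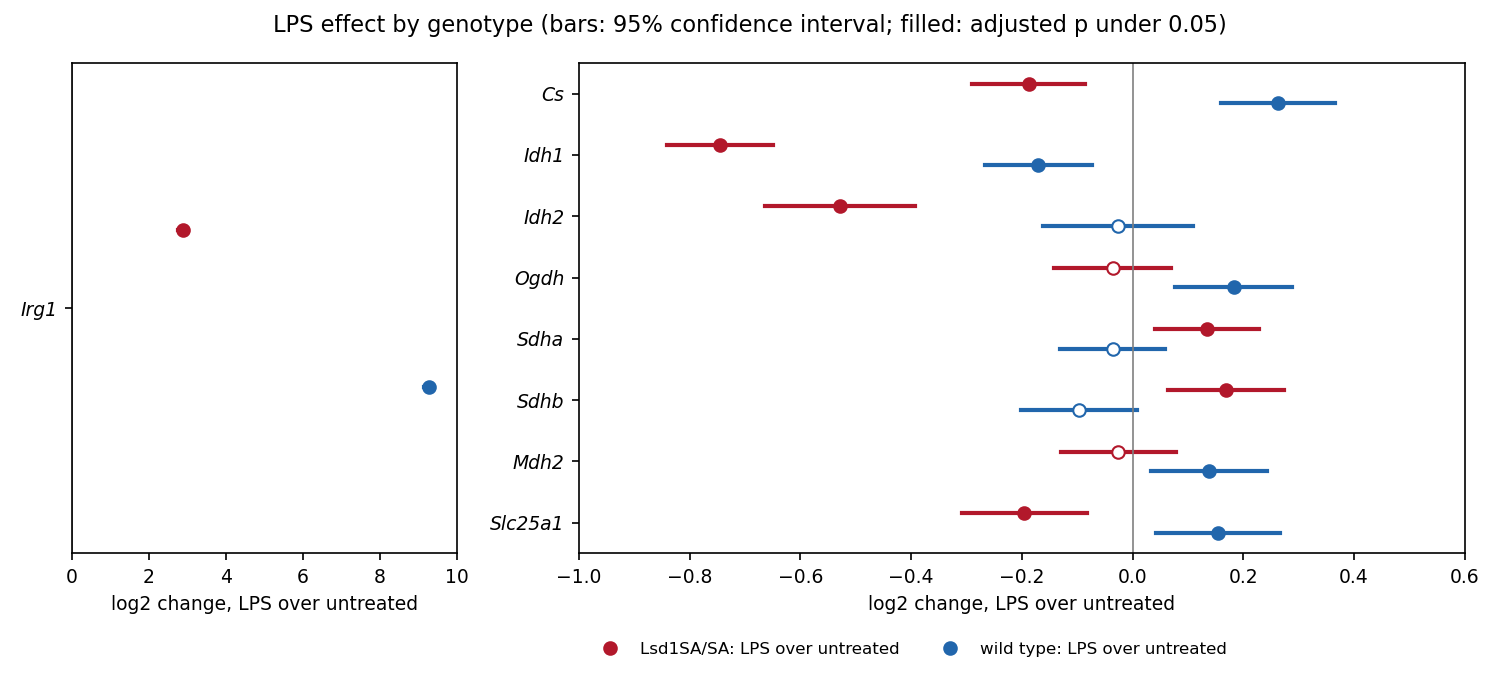
Log2 change of each gene with LPS over untreated in Lsd1SA/SA (red) and wild-type (blue) macrophages, with 95% confidence intervals; filled points passed an adjusted p of 0.05. Irg1, on its own axis, changed by 2.87 in the knock-in and 9.26 in wild type; Idh1 fell in both, and Cs lies on opposite sides of 0.

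The isocitrate dehydrogenases fell in LPS-treated knock-in cells. Cytosolic Idh1 had 117 and 119.7 CPM in LPS-treated knock-in, 199 and 199 CPM in untreated knock-in, 177 and 172 CPM in LPS-treated wild-type, and 200.5 and 193 CPM in untreated wild-type libraries. Both LPS groups lay below both untreated groups, the knock-in furthest. The log2 change with LPS was -0.75 (95% CI -0.84 to -0.65; limma adjusted p = 1.64e-12) in the knock-in and -0.17 (95% CI -0.27 to -0.07; limma adjusted p = 0.00323) in wild type. The difference between the 2 effects was -0.58 (SE 0.07, limma adjusted p = 6.04e-08). With quantile normalization and equal totals the wild-type change was -0.53 and -0.46, and the difference in effect -0.30 and -0.33.

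Mitochondrial Idh2 had 35.9 and 31.7 CPM in LPS-treated knock-in, 47.6 and 50.6 CPM in untreated knock-in, 46.4 and 45.1 CPM in LPS-treated wild-type, and 47.0 and 46.3 CPM in untreated wild-type libraries. The LPS-treated knock-in libraries lay below the rest in this scaling. LPS changed Idh2 by -0.53 on the log2 scale in the knock-in (95% CI -0.66 to -0.39, limma adjusted p = 2.95e-07). In wild type the change was -0.03 (95% CI -0.16 to 0.11, limma adjusted p = 0.75). Equal totals gave a call as lower there (-0.32, limma adjusted p = 0.000183), beside a median of -0.298 over all tested genes. The difference between these effects was -0.50 (SE 0.09, limma adjusted p = 5.51e-05; -0.26 with equal totals, adjusted p = 0.0181). For both Idh1 and Idh2, the fall in the knock-in, the lower level under LPS and the difference in effect passed under every alternative run. The ratio of Idh1 to Idh2 per length was 2.47 and 2.86 in LPS-treated knock-in, 3.17 and 2.98 in untreated knock-in, 2.9 and 2.9 in LPS-treated wild-type, and 3.23 and 3.17 in untreated wild-type libraries, so Idh1 remained the more abundant of the pair in all 8.

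Citrate synthase had 143 and 137 CPM in LPS-treated knock-in, 161 and 158 CPM in untreated knock-in, 180.1 and 188 CPM in LPS-treated wild-type, and 158 and 148 CPM in untreated wild-type libraries. The LPS groups lay on either side of the untreated ones. Cs fell by 0.19 on the log2 scale in the knock-in (limma adjusted p = 0.0026, 95% CI -0.29 to -0.09). In wild type it was higher by 0.26 (95% CI 0.16 to 0.37, limma adjusted p = 7.54e-05). The sign flipped there to -0.09 with quantile normalization and -0.03 with equal totals. Relative to the median of all tested genes, the wild-type change was 0.294 as deposited, -0.007 with quantile normalization and 0.266 with equal totals. The level under LPS was lower in knock-in than in wild-type cells by any scaling (log2 difference -0.39, SE 0.05, limma adjusted p = 1.66e-07; -0.13 with quantile normalization, adjusted p = 0.024, and -0.17 with equal totals, adjusted p = 0.00354). The difference in LPS effect was -0.45 (SE 0.07, limma adjusted p = 6.05e-06), and -0.19 and -0.20 under those scalings.

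The citrate carrier Slc25a1 had 63.9 and 63.3 CPM in LPS-treated knock-in, 74.4 and 71.6 CPM in untreated knock-in, 74.1 and 78.0 CPM in LPS-treated wild-type, and 67.4 and 69.1 CPM in untreated wild-type libraries. It was lowest in the LPS-treated knock-in. The change with LPS was -0.20 in the knock-in (SE 0.05, limma adjusted p = 0.00379; adjusted p = 0.0524 without untreated knock-in replicate 1). In wild type it was 0.15 (limma adjusted p = 0.0178), which flipped to -0.04 with quantile normalization and -0.14 with equal totals, and missed the threshold without LPS-treated wild-type replicate 2 (adjusted p = 0.145) or untreated wild-type replicate 1 (adjusted p = 0.0733). Under LPS, Slc25a1 was lower in knock-in than in wild-type cells by -0.25 (limma adjusted p = 0.000192). The call was lost with quantile normalization (-0.10, limma adjusted p = 0.109) and equal totals (-0.03, limma adjusted p = 0.585). Relative to the median of all tested genes, Slc25a1 lay at -0.277 as deposited, -0.18 with quantile normalization and -0.261 with equal totals. The difference in effect, -0.35 (SE 0.08, limma adjusted p = 0.000366), missed the threshold with equal totals (-0.10, adjusted p = 0.229).

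Both succinate dehydrogenase subunits stood higher in LPS-treated knock-in than in LPS-treated wild-type cells. Sdha had 235 and 233 CPM in LPS-treated knock-in, 212 and 214 CPM in untreated knock-in, 201 and 208 CPM in LPS-treated wild-type, and 214 and 206 CPM in untreated wild-type libraries. Sdhb had 169 and 167 CPM in LPS-treated knock-in, 148 and 151 CPM in untreated knock-in, 124 and 132 CPM in LPS-treated wild-type, and 142 and 132 CPM in untreated wild-type libraries. The LPS-treated knock-in libraries were the highest for both genes. Under LPS, knock-in against wild type, the log2 difference was 0.19 for Sdha (95% CI 0.10 to 0.29; limma adjusted p = 0.000636) and 0.39 for Sdhb (95% CI 0.29 to 0.50; limma adjusted p = 2.48e-07). Both passed under every alternative run, quantile normalization and equal totals included, where the differences were 0.51 and 0.42 for Sdha and 0.62 and 0.61 for Sdhb. Over all tested genes the median difference was 0.023 as deposited, 0.085 with quantile normalization and 0.228 with equal totals. Sdha lay 0.168, 0.426 and 0.187 above these medians, and Sdhb 0.368, 0.537 and 0.386.

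LPS effects on the subunits within a genotype were small. In the knock-in, the change was 0.14 for Sdha (limma adjusted p = 0.0152) and 0.17 for Sdhb (limma adjusted p = 0.00672). The Sdha call was lost when any 1 of the 4 knock-in libraries was left out (adjusted p 0.0542 to 0.0843), and with quantile normalization (adjusted p = 0.314) or equal totals (adjusted p = 0.0974). The Sdhb call was lost without LPS-treated knock-in replicate 1 (adjusted p = 0.0554), without untreated knock-in replicate 1 (adjusted p = 0.0569) and with quantile normalization (adjusted p = 0.105). In wild type neither passed: -0.04 for Sdha (95% CI -0.13 to 0.06; limma adjusted p = 0.528) and -0.10 for Sdhb (95% CI -0.20 to 0.01; limma adjusted p = 0.109). Both passed as lower there with quantile normalization (-0.46 and -0.39) and with equal totals (-0.33 and -0.39). Relative to the median of all tested genes, they lay at -0.378 and -0.304 with quantile normalization and -0.032 and -0.092 with equal totals. Without untreated wild-type replicate 2, the Sdhb change was -0.15.

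The difference in LPS effect between genotypes was 0.26 for Sdhb (95% CI 0.12 to 0.41; limma adjusted p = 0.00254), which passed under every alternative run and was 0.49 with quantile normalization and 0.51 with equal totals. For Sdha it was 0.17 (95% CI 0.04 to 0.30; limma adjusted p = 0.0249), and it missed the threshold in edgeR's quasi-likelihood test on the recovered reads (adjusted p = 0.109) and when any of 6 single libraries was left out (adjusted p 0.051 to 0.0925). The ratio of Sdhb to Sdha per length was 1.83 and 1.82 in LPS-treated knock-in, 1.77 and 1.79 in untreated knock-in, 1.57 and 1.61 in LPS-treated wild-type, and 1.68 and 1.63 in untreated wild-type libraries. The knock-in libraries lay above the wild-type libraries in this ratio with and without LPS, and with 2 libraries a group an exact permutation test cannot go below p = 0.333.

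For Ogdh and Mdh2, signs depended on the scaling. Ogdh had 141 and 132 CPM in LPS-treated knock-in, 138 and 142 CPM in untreated knock-in, 162 and 153 CPM in LPS-treated wild-type, and 137 and 141 CPM in untreated wild-type libraries. Mdh2 had 126 and 128 CPM in LPS-treated knock-in, 127 and 131 CPM in untreated knock-in, 129.7 and 135 CPM in LPS-treated wild-type, and 124 and 116 CPM in untreated wild-type libraries. The LPS-treated wild-type libraries were the highest for Ogdh, while the LPS-treated and untreated knock-in libraries overlapped for both genes. In the knock-in, LPS changed neither past the threshold (Ogdh -0.04, 95% CI -0.14 to 0.07, limma adjusted p = 0.565; Mdh2 -0.03, 95% CI -0.13 to 0.08, limma adjusted p = 0.681).

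In wild type, both were called higher with LPS as deposited, by 0.18 for Ogdh (limma adjusted p = 0.0036) and 0.14 for Mdh2 (limma adjusted p = 0.0223). Both flipped with quantile normalization (-0.13 and -0.14) and equal totals (-0.11 and -0.16). The median over all tested genes was -0.032 as deposited, -0.086 with quantile normalization and -0.298 with equal totals. Relative to these medians, Ogdh lay at 0.215, -0.044 and 0.187, and Mdh2 at 0.17, -0.053 and 0.142. The Ogdh call was also lost without LPS-treated wild-type replicate 1 (adjusted p = 0.0639), and the Mdh2 call without replicate 2 of LPS-treated (adjusted p = 0.149) or untreated wild type (adjusted p = 0.186). Under LPS, Ogdh was lower in knock-in than in wild type by -0.21 (limma adjusted p = 0.000798), which flipped to 0.03 with quantile normalization and 0.02 with equal totals. Mdh2 differed by -0.06 (limma adjusted p = 0.296), with 0.17 under both of those scalings (limma adjusted p = 0.00394 and 0.00454). Relative to the median of all tested genes, Ogdh lay at -0.231 as deposited, -0.053 with quantile normalization and -0.212 with equal totals. Mdh2 lay at -0.082, 0.089 and -0.063. The difference in LPS effect, -0.22 for Ogdh (limma adjusted p = 0.0108) and -0.16 for Mdh2 (limma adjusted p = 0.0482), changed sign under the same scalings and was lost for Ogdh without LPS-treated knock-in replicate 2 (adjusted p = 0.0827) or LPS-treated wild-type replicate 1 (adjusted p = 0.0632), and for Mdh2 without any of 6 single libraries (adjusted p 0.0593 to 0.167).

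Between untreated genotypes, the 8 enzyme and carrier genes differed by 0.01 (Ogdh) to 0.13 (Sdhb) on the log2 scale, with limma adjusted p from 0.284 to 0.942. Their 95% confidence intervals lay between -0.09 and 0.23. These intervals cover the scatter between libraries alone, which may be technical, and do not bound differences between cultures or animals. The knock-in and wild-type libraries overlapped for Cs, Idh1, Ogdh and Sdha and did not for Idh2, Sdhb, Mdh2 and Slc25a1. The share of all tested genes without overlap was not computed. With 2 against 2 libraries an exact permutation test cannot go below p = 0.333, so nothing is drawn from these overlaps.

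Ratios within a library need no scaling between libraries, and they did not repeat every pattern above. Relative to Cs per length, Sdhb stood at 3.04 and 3.12 in LPS-treated knock-in, 2.36 and 2.45 in untreated knock-in, 1.77 and 1.8 in LPS-treated wild-type, and 2.3 and 2.28 in untreated wild-type libraries. Sdha stood at 1.66 and 1.72, 1.33 and 1.37, 1.13 and 1.12, and 1.36 and 1.4 in the same order of groups. Both subunits thus moved up relative to Cs in the LPS-treated knock-in and down in LPS-treated wild type. Idh1 stood at 1.04 and 1.11, 1.57 and 1.6, 1.25 and 1.17, and 1.61 and 1.66, below its untreated ratio with LPS in both genotypes. Mdh2 stood at 1.77 and 1.88, 1.59 and 1.67, 1.45 and 1.44, and 1.58 and 1.58. Idh2 stood at 0.421 and 0.389, 0.497 and 0.537, 0.432 and 0.404, and 0.498 and 0.524. Like Idh1, it lay below its untreated ratio with LPS in both genotypes. Ogdh lay between 0.579 and 0.702 and Slc25a1 between 0.723 and 0.821 in every library. A ratio shows unequal change and not which of the 2 genes changed.

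**Figure D3:**
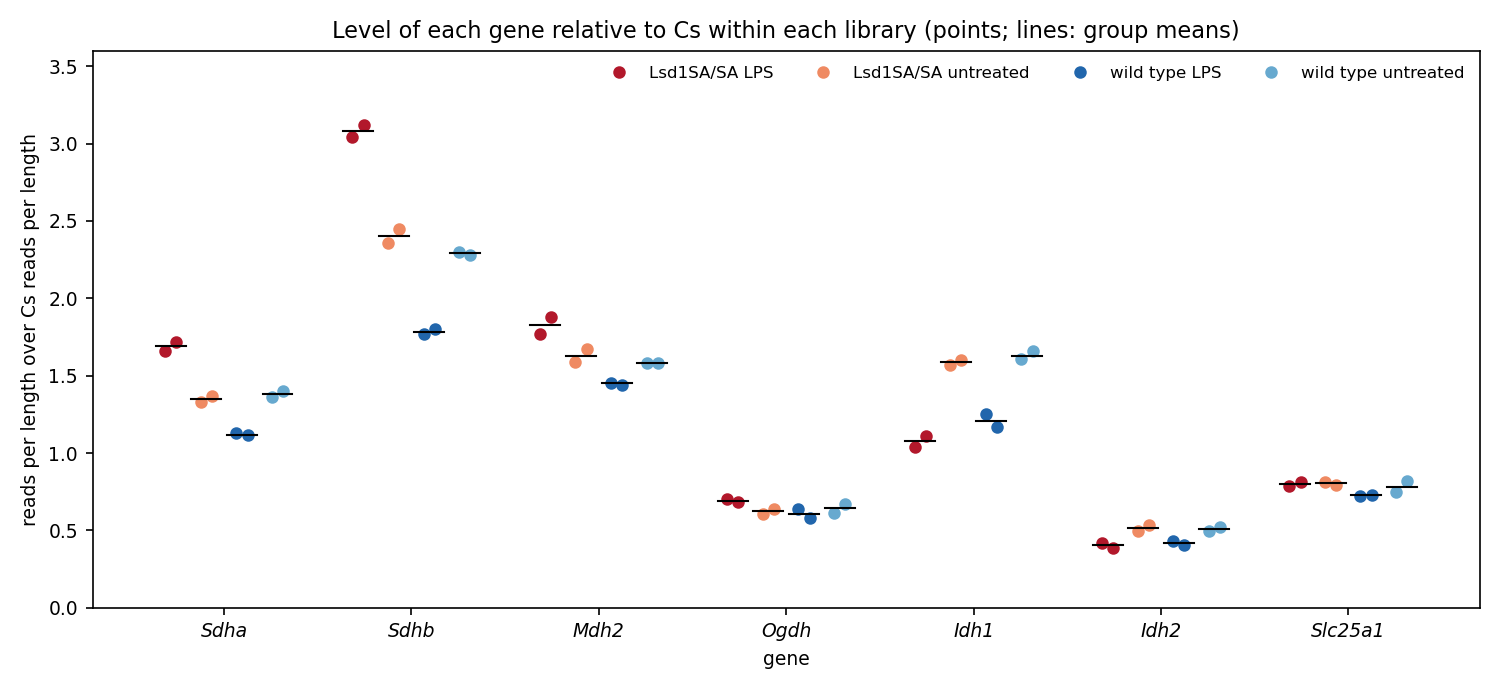
Reads per transcript length of each gene over those of Cs in the same library (points), with group means (lines). Sdhb and Sdha are highest in LPS-treated Lsd1SA/SA libraries (3.04 and 3.12 for Sdhb) and lowest in LPS-treated wild-type libraries (1.77 and 1.8).

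The remaining 14 enzymes of the cycle were all tested. LPS gave 0 higher and 6 lower in knock-in cells as deposited, where 56.7% of all tested genes passed. The same comparison gave 0 higher and 6 lower with quantile normalization, 0 and 7 with equal totals, and 1 and 5 with median-of-ratios scaling. Over all tested genes, these scalings gave 3312 higher and 3439 lower, 2860 and 3789, and 3477 and 3290. In wild-type cells 4 were higher and 0 lower as deposited (57.6% of all tested genes passed). Quantile normalization gave 1 higher and 5 lower, where all tested genes gave 2539 higher and 4640 lower. Equal totals gave 1 higher and 11 lower, where all tested genes gave 1628 higher and 7676 lower. Under LPS, 2 were higher and 7 lower in knock-in than in wild-type cells (75.4% of all tested genes passed). The split was 5 and 6 with quantile normalization and 5 and 4 with equal totals. All tested genes gave 5129 higher and 3795 lower, then 6369 and 3058, under those scalings. The median difference of -0.17 as deposited became 0.05 with equal totals, beside 0.023 and 0.228 over all tested genes.

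Aco1, the cytosolic aconitase that also acts as an iron regulatory protein, fell with LPS in knock-in cells, to 52.8 and 50.5 CPM against 73.0 and 73.3 CPM in untreated knock-in libraries (log2 change -0.50, limma adjusted p = 3.86e-08). Fh1, fumarase, changed by -0.33 (limma adjusted p = 0.00064), Mdh1, cytosolic malate dehydrogenase, by -0.28 (limma adjusted p = 0.000169) and Suclg2, the GTP-specific succinyl-CoA ligase subunit, by -0.27 (limma adjusted p = 0.0142) in that comparison. These 4 kept their sign and call there under each other scaling. In wild-type cells LPS raised Dlst, the succinyltransferase subunit that works with Ogdh, to 128 and 131 CPM in LPS-treated against 88.5 and 88.7 CPM in untreated libraries (log2 change 0.55, limma adjusted p = 2.15e-09; 0.25 at the lowest scaling). Dld, the dihydrolipoyl dehydrogenase subunit shared with pyruvate dehydrogenase, changed by 0.35 (limma adjusted p = 7.17e-06), with 0.06 and no call at the lowest scaling.

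**Figure D4:**
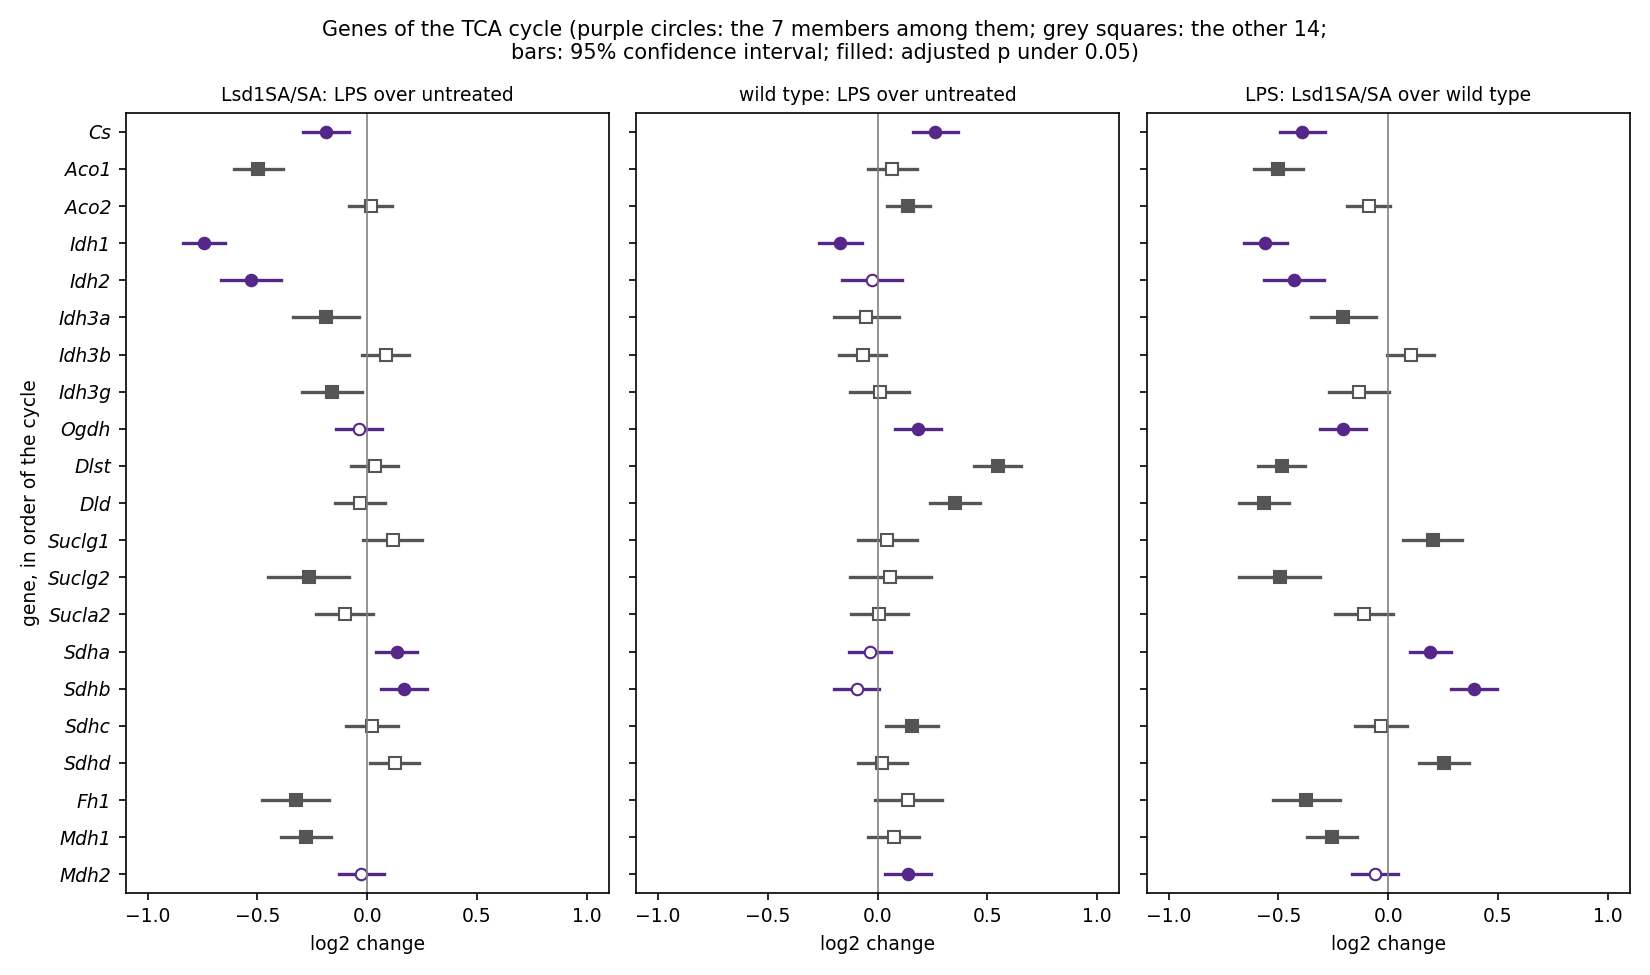
Log2 change and 95% confidence interval of genes of the TCA cycle, in the order of the cycle, for LPS over untreated in Lsd1SA/SA cells, LPS over untreated in wild type, and Lsd1SA/SA over wild type with LPS, in the deposited scaling. Purple circles are the 7 cycle enzymes described above and grey squares the other 14; in the third panel Dld (-0.57), Idh1 (-0.56), Aco1 (-0.50), Suclg2 (-0.49) and Dlst (-0.49) lie furthest below 0 and Sdhb (0.39) furthest above.

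Within the 2-oxoglutarate dehydrogenase complex, Dlst and Dld were lower in LPS-treated knock-in than in LPS-treated wild-type cells by -0.49 (limma adjusted p = 9.71e-09; -0.26 at the scaling nearest 0) and -0.57 (limma adjusted p = 2.39e-09; -0.34 at the scaling nearest 0), and both calls held under each scaling, unlike that of Ogdh. Of the other succinate dehydrogenase genes (named after their values were seen), the membrane anchor Sdhd was higher by 0.25 (limma adjusted p = 0.000196; 0.23 to 0.48 over the scalings), and the anchor Sdhc differed by -0.03 (limma adjusted p = 0.599). Sdhaf1 and Sdhaf2, assembly factors for the iron-sulfur and flavoprotein subunits, are named here after their values were seen. Sdhaf1 had 6.02 and 5.98 CPM in LPS-treated knock-in against 3.37 and 3.35 CPM in LPS-treated wild-type libraries (log2 difference 0.68, limma adjusted p = 4.91e-05). Sdhaf2 had 56.0 and 57.1 against 42.4 and 41.4 CPM (log2 difference 0.43, limma adjusted p = 4.91e-07). In wild type both fell with LPS, by 0.64 and 0.20 on the log2 scale, and these directions were kept under each scaling.

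Of 16 tested genes for pyruvate entry and anaplerosis, LPS gave 3 higher and 8 lower in knock-in and 3 higher and 5 lower in wild-type cells (2 and 11 in wild type with equal totals), where 56.7% and 57.6% of all tested genes passed. Under LPS, 3 were higher and 8 lower in knock-in than in wild type (75.4% of all tested genes passed), with 5 and 5 under equal totals. Under equal totals, all tested genes gave 1628 higher and 7676 lower for LPS in wild type. They gave 6369 higher and 3058 lower for knock-in against wild type with LPS. Pdp1 and Pdp2, the phosphatases that activate pyruvate dehydrogenase, were lower with LPS in wild-type cells. Pdp1 had 64.8 and 63.9 CPM in LPS-treated knock-in, 52.8 and 51.9 CPM in untreated knock-in, 14 and 13.8 CPM in LPS-treated wild-type, and 50.1 and 47.6 CPM in untreated wild-type libraries, so only the LPS-treated wild-type libraries were low. The LPS change was 0.29 in knock-in (limma adjusted p = 0.000301) and -1.74 in wild type (limma adjusted p = 8.42e-18). Pdp2 changed by 0.26 in knock-in (limma adjusted p = 0.0444, a call lost under another scaling) and -1.06 in wild type (limma adjusted p = 8.17e-09). Pdk1, a kinase that inactivates the same complex, fell to 16.3 and 16.6 CPM in LPS-treated knock-in against 35.9 and 33.7 CPM in untreated knock-in libraries (log2 change -1.04, limma adjusted p = 4.45e-12). It also fell in wild type, to 33.4 and 33.7 CPM in LPS-treated against 38.5 and 41 CPM in untreated libraries (log2 change -0.24, limma adjusted p = 0.00501).

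The next list held 7 genes linked to lipid synthesis from cytosolic citrate, not all of which use citrate itself. With LPS, 1 was higher and 4 lower in knock-in cells, and 0 were higher and 2 lower in wild-type cells (0 and 5 with equal totals). Under LPS, 1 was higher and 5 lower in knock-in than in wild type. Of all tested genes, 56.7%, 57.6% and 75.4% passed in these comparisons as deposited. For LPS in wild type with equal totals, 1628 of all tested genes passed as higher and 7676 as lower. Fasn, fatty acid synthase, had 20.3 and 22.2 CPM in LPS-treated knock-in, 45.6 and 42.3 CPM in untreated knock-in, 50.4 and 44.1 CPM in LPS-treated wild-type, and 43.8 and 44.5 CPM in untreated wild-type libraries. Only the LPS-treated knock-in was low (log2 change -1.02, limma adjusted p = 1.52e-11). Scd2, a stearoyl-CoA desaturase, fell with LPS in both genotypes, by 2.18 in knock-in (limma adjusted p = 4.32e-18) and 0.59 in wild type (limma adjusted p = 1.12e-07). Acly, which splits citrate in the cytosol and is named after its values were seen, was not called with LPS in either genotype (-0.10 in knock-in, 0.04 in wild type).

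Of 10 further mitochondrial carriers, LPS gave 3 higher and 4 lower in knock-in cells under each of the 4 scalings. In wild type it gave 3 higher and 1 lower as deposited, 0 and 5 with quantile normalization and 0 and 8 with equal totals. Of all tested genes, 56.7% passed in knock-in and 57.6% in wild-type cells as deposited. In wild type, all tested genes gave 2539 higher and 4640 lower with quantile normalization, and 1628 and 7676 with equal totals. Slc25a13, an aspartate-glutamate carrier, had 7.87 and 6.97 CPM in LPS-treated knock-in against 18.5 and 18.9 CPM in untreated knock-in libraries (log2 change -1.23, limma adjusted p = 1.31e-11), and Slc25a10, the dicarboxylate carrier, changed by -0.64 (limma adjusted p = 4.8e-09). Slc25a22, a glutamate carrier, was higher by 0.58 (limma adjusted p = 1.24e-06).

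A further list held genes known to respond to or act with itaconate or succinate. Of 10 tested, 6 were higher and 2 lower with LPS in knock-in, 5 higher and 3 lower with LPS in wild type, and 3 higher and 7 lower in knock-in than in wild type under LPS, where 56.7%, 57.6% and 75.4% of all tested genes passed. Nfkbiz, which encodes the inducible NF-κB cofactor IκBζ, had 15.9 and 18.3 CPM in LPS-treated knock-in, 26.7 and 25.3 CPM in untreated knock-in, 1358 and 1271 CPM in LPS-treated wild-type, and 30.1 and 28.3 CPM in untreated wild-type libraries. Unlike Irg1, it fell with LPS in the knock-in (log2 change -0.58, limma adjusted p = 4.66e-08), against 5.44 in wild type (limma adjusted p = 2.17e-27). Nfe2l2, encoding the antioxidant regulator NRF2, had 289 and 280.2 CPM in LPS-treated knock-in against 629.6 and 647 CPM in LPS-treated wild-type libraries (log2 difference -1.16, limma adjusted p = 1.24e-16; -0.73 at the scaling nearest 0). Rab32, a GTPase linked to itaconate delivery to vacuoles, rose in both genotypes, by 0.44 in knock-in (limma adjusted p = 1.82e-07) and 1.24 in wild type (limma adjusted p = 3.83e-16). Atf3, a stress-induced transcription factor gene, rose by 0.74 (limma adjusted p = 1.64e-12) and 0.95 (limma adjusted p = 6.05e-15).

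In these bulk libraries, fewer cells of a type and less RNA per cell cannot be told apart. Stromal markers (8 genes, the summed level given) were at 68.5 and 68.6 CPM in LPS-treated knock-in, 22.7 and 21.6 CPM in untreated knock-in, 16.6 and 16.5 CPM in LPS-treated wild-type, and 19.7 and 17.5 CPM in untreated wild-type libraries, and 5 of the 6 tested rose with LPS in the knock-in. Neutrophil markers (10 genes) summed to 514 to 523, 373 to 383, 781 to 801 and 375 to 386 CPM in the same order, and 8 of 10 rose with LPS in each genotype (7 in knock-in and 5 in wild type with equal totals). Of all tested genes, 28.5% passed as higher with LPS in the knock-in and 26.8% in wild type, as deposited. With equal totals, 2860 of 11919 passed as higher in the knock-in and 1628 in wild type. Dendritic cell markers (6 genes) summed to 4.9 to 5.5, 34.9 to 37.7, 49.5 to 50 and 37.5 to 40.3 CPM. Itgax, which macrophages can also express, made up most of that sum, with means of 4.34, 35.1, 46.3 and 37.2 CPM. Xcr1, the other tested gene of the list, differed by 0.01 with LPS in the knock-in (limma adjusted p = 0.959). In wild type it rose by 0.77 (limma adjusted p = 0.000842), and its means were 0.539, 0.523, 2.14 and 0.872 CPM. Zbtb46, too low to be tested, had means of 0.0739, 0.171, 1.02 and 0.134 CPM. Flt3, Siglech and Clec9a were under 1 CPM in every library. No gene of these lists was at 0 in every library. Their part in the differences of Irg1 and the cycle genes was not tested.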

How the data were processed

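RNA-seq of 8 libraries in 4 groups of 2 was analysed, grouped by the sample labels. The authors deposited one table of 23366 genes whose values are a signal: read counts divided by scaled library sizes, the form of TMM-scaled CPM. Divided by what 1 read is worth in each library, 100% of the non-zero values were whole numbers (tolerance 0.001). The submitters' processing notes name the mm9 genome, TopHat2 2.0.9, edgeR and bedtools. Counting rule, strand use and annotation were not given in the sources used here.

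Genes of at least 1 CPM in 2 libraries (11919) were tested on log2(value + 1) with limma 3.58.1 in R 4.3.3 (1 fit over 4 groups, variance trend, 95% confidence intervals, Benjamini-Hochberg adjusted p under 0.05). Fold changes on this scale understate changes of low genes. Tests were tried on simulated data. Alternatives were other pseudocounts, filters and scalings, left-out libraries, a replicate block, and, chosen after seeing the data, edgeR 4.0.16 and DESeq2 1.42.0 on the recovered reads, which called 6842 and 6485 genes for LPS in wild type. Lengths for levels per kilobase are of GENCODE vM21 transcripts on GRCm38. No exon of another gene overlapped those of the 9 genes in that annotation.

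Members and gene lists were chosen with earlier results of these data known. Named genes were the 9 members, the 5 genes most correlated with Irg1, and genes of the lists. The latter were drawn from at most 4 genes a list and comparison. These had the largest absolute log2 change among called genes whose groups did not overlap. Not all genes that met this rule are named, and values of a named gene are also given in other comparisons. Apart from dendritic cell markers too low to be tested, other genes are named without that rule only where said. Libraries of a group differed by more than sampling noise (mean chi-square per gene 5.62 to 13.5, where 1 is noise alone). One marker list is not reported here.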

Additional observations from a re-analysis of the deposited data

Results flagged for a closer look

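Each of the 9 genes had an LPS effect that differed between the genotypes by the interaction term in limma (adjusted p under 0.05), as did 63.7% of all tested genes. Knock-in minus wild type, the LPS effects on the log2 scale differed by -6.39 for Irg1, -0.45 for Cs, -0.58 for Idh1, -0.50 for Idh2, -0.22 for Ogdh, 0.17 for Sdha, 0.26 for Sdhb, -0.16 for Mdh2 and -0.35 for Slc25a1. Irg1 ranked 10 from the most negative of 11919 genes. Every one of these values uses the LPS-treated knock-in libraries, which held 4993 and 5122 Y-linked reads against at most 2 in the other 6, so genotype and sex cannot be told apart in them.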

How the results depend on the processing

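Of the results on single genes under an alternative, 694 kept their sign and side of the threshold, 36 no longer passed, 6 newly passed and 29 changed sign. Of the counts of called genes among the 9, 84 stayed within 1.5 times and 1 did not.

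Signs changed mainly with scaling, in the order quantile normalization then equal totals. For LPS in wild type they became -0.093 and -0.032 for Cs, -0.13 and -0.111 for Ogdh, -0.139 and -0.156 for Mdh2, and -0.044 and -0.137 for Slc25a1; Idh2 was 0.004 with median-of-ratios scaling, 0.006 in edgeR and 0.003 in DESeq2. For knock-in against wild type with LPS they became 0.032 and 0.016 for Ogdh and 0.174 and 0.165 for Mdh2. For the difference in LPS effect they became 0.042 and 0.029 for Ogdh and 0.07 and 0.083 for Mdh2. Untreated, with none called, they became -0.01 and -0.013 for Ogdh, -0.007 and -0.004 for Sdha, and -0.009 for Idh1 with equal totals. Medians over all tested genes moved under these scalings as well, by -0.054 and -0.266 for LPS in wild type. They moved by 0.062 and 0.205 for knock-in against wild type with LPS, and by 0.06 and 0.228 for the difference in LPS effect. The cause was not tested.

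Leaving out 1 library left 1 in its group. Fewer of the 9 genes were then called for LPS in the knock-in and for the difference in effect. Calls over all tested genes fell too, in each comparison with LPS. With a library left out, Ogdh ranged between -0.088 and 0.015 for LPS in the knock-in (the positive value without LPS-treated knock-in replicate 2). Untreated, Ogdh ranged between -0.011 (without knock-in replicate 2) and 0.033, with -0.008 without wild-type replicate 1. Idh1 ranged between -0.011 and 0.042 and Sdha between -0.008 and 0.049, both negative without wild-type replicate 2.

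Same-numbered libraries did not vary together (r -0.0837 to 0.0891), which cannot show whether they were prepared together. With a replicate block the Mdh2 difference in effect, -0.164, had an adjusted p of 0.0514, and no other call on the 9 genes changed. Without a low-value filter it had 0.0619, and with robust variances 0.0501.

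Untreated, the count over all genes was 1, and 1 in edgeR, 0 without a filter, 2 with pseudocount 4, 4 with equal totals, 18 with robust variances, 31 in DESeq2, 481 and 5 without wild-type replicate 1 and 2, and 2 without knock-in replicate 1. Without the LPS-treated knock-in group, LPS in wild type still called 6 of the 9 genes, where 6718 of all 11919 tested genes passed. With 2 libraries a group, small changes at this depth rest on a spread borrowed from all genes.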
